A study of Homo sapiens and Mus musculus with 41 samples.

Results

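NRF2, the transcription factor encoded by NFE2L2, its repressor KEAP1 and 7 of its antioxidant target genes were followed through cultured tumour cells before and after growth in the nervous system of mice. The 9 genes are NFE2L2, KEAP1, NQO1, HMOX1, GCLC, GCLM, TXNRD1, SRXN1 and SLC7A11, taken as the rows of each expression table whose symbol equals one of these names, ignoring case. All 9 were found in each of 4 tables, among 23368 genes in each human table and 23337 in the mouse table. In unstressed cells KEAP1 holds NRF2 for ubiquitination by the CUL3 ligase and degradation. Oxidants and electrophiles modify KEAP1, NRF2 accumulates, and with a small MAF protein it binds antioxidant response elements near genes for glutathione synthesis, thioredoxin reduction and detoxification. Some carcinomas keep the pathway switched on, and its targets then stand at high levels.

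The series holds 41 libraries of polyadenylated RNA from 4 GFP-expressing models. HCC1954 is a human ductal breast carcinoma line with raised HER2, MDA-MB-231 a human breast carcinoma line without ER, PR and HER2, PC9 a human lung cancer line, and LLC the Lewis lung carcinoma of the C57/B6 mouse. Each model was sampled as the parental line (Par), an intermediate stage derivative (Int), a leptomeningeal derivative (Lep) and a brain metastatic derivative (BrM). Par was sequenced in 3 libraries and Int in 2 for every model. Lep had 3 libraries in HCC1954 and LLC and 2 in the other models, and BrM had 2 in HCC1954 and 3 elsewhere. Leptomeningeal cells were washed out of the mice, grown on plastic until the culture was uniformly GFP-positive, and passaged before RNA was taken, so all values describe cultured cells. MDA-MB-231 and LLC cells grew in DMEM, and HCC1954 and PC9 cells in RPMI1640. The submitters call the Par replicates technical and the Int and Lep replicates a mixture of biological and technical ones. The p-values here therefore measure the spread between libraries and not between animals. In bulk RNA, fewer cells that express a gene and less of its RNA per cell cannot be told apart.

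Recovered reads ran from 16792027 to 110830546 per library. In HCC1954 the Int libraries were the deepest, at 67210373 and 67367833, with 33871657 or less in the other stages. In MDA-MB-231 the Int libraries were also the deepest, at 96283309 and 110830546, with 67354695 or less in the other stages. In PC9 the Int and Lep libraries held 28657904 to 38432963 recovered reads, and the Par and BrM libraries 16792027 to 23781567, without overlap. The part of depth in the Int comparisons, and in those of PC9 Lep, was not tested. The HCC1954 libraries held the epithelial gene EPCAM at 7775 or more normalized counts, but KRT19, a keratin of simple epithelia, was at 42800 to 43296 in Par and at 322 to 967 in the derivatives. PC9 libraries held EGFR at 9147 to 9752 in Par and at 1527 to 1928 in Int and Lep, and NKX2-1, a lung lineage factor, at 0 to 3.68. The MDA-MB-231 Par libraries differed most from each other, with a chi-square per degree of freedom of up to 454 between replicates 1 and 3, against at most 2.19 between PC9 Par replicates.

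Promoter sequences were available for 7 of the human genes, as 10 windows from 250 bases before to 50 bases after an annotated RefSeq start (build GRCh38.p14). They were searched on both strands for the core of the antioxidant response element, TGACNNNGC, and for a longer form, the same letters followed by A, which contains the core. The core was found in 13.3% and the longer form in 3.18% of all 35116 human windows. Among the 7 genes both forms were found at KEAP1, GCLM and TXNRD1. The matches to the longer form are printed because they are the letters that NRF2 is known to recognise. They are given 5′ to 3′ on the gene's strand with the match in capitals, and in all 3 genes the element itself reads on the opposite strand.
GCLM: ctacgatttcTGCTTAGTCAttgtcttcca
KEAP1: cgcccggctcTGCTTAGTCAtggtgacctg
TXNRD1: agtggatttcTGCTTTGTCAttctgactct
The GCLM stretch is at chr1:93909446-93909475 (minus strand), with the match at bases -35 to -26 from the start. The KEAP1 stretch is at chr19:10502784-10502813 (minus strand), at bases -32 to -23. The TXNRD1 stretch is at chr12:104286919-104286948 (plus strand), at bases -103 to -94 of the second of its 2 windows. The windows of NFE2L2, NQO1, GCLC and SRXN1 did not contain these letters, which says nothing about sites elsewhere. A match is a description of sequence and not a measured site. HMOX1 and SLC7A11 had no window in the table.

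In HCC1954 the target genes NQO1, GCLM, TXNRD1, SRXN1 and SLC7A11 were lower in every derivative than in the parental line, by between 2.55-fold and 12.9-fold, while the mRNA of NRF2 itself, NFE2L2, was not called. A gene was called when its limma Benjamini-Hochberg adjusted p, taken over all genes tested, was under 0.05 and its log2 fold change reached 1 in either direction. Log2 fold changes are on the log2(normalized count + 1) scale, ± their standard error. In Lep with Par 5 of the 9 genes were called lower and 0 higher. Of the 15561 genes in that fit, 26.8% were called, 13% higher and 13.8% lower. In Int with Par the same 5 genes were called lower and 0 higher, where 21.2% of all genes tested were called, 6.6% higher and 14.6% lower. In BrM with Par 6 were called lower and 0 higher, where 23.6% of all genes tested were called, 9.63% higher and 14% lower. The 3 comparisons share the Par libraries. The median log2 fold change of the 9 genes in Lep with Par was -1.88, and that of all genes tested -0.02.

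The cystine transporter SLC7A11, which brings in the precursor for glutathione and is also a target of the stress factor ATF4, moved most in HCC1954. Its normalized counts were 14771, 15995 and 15450.1 in the Par libraries, 2099 and 1671 in Int, 1378, 1352 and 1306 in Lep and 1223 and 1155 in BrM. All 7 derivative libraries lay far below the 3 parental ones, with no overlap. The log2 fold change against Par was -3.04 ± 0.07 in Int, -3.52 ± 0.06 in Lep (limma adjusted p = 3.5e-14) and -3.69 ± 0.07 in BrM. SLC3A2, the heavy chain that carries SLC7A11 to the membrane, had 10328 ± 302 in Par and 8280.2 ± 299 in Lep (mean ± SD, n = 3 each), a log2 fold change of -0.32 that was not called. ATF4 had 9345 ± 219 in Par and 6735 ± 271 in Lep and was not called either.

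The subunits of glutamate-cysteine ligase, which makes the first step of glutathione synthesis, parted in HCC1954. GCLM, the modifier subunit, had 15187, 15983 and 15405 in Par, 3579.7 and 3482 in Int, 3065, 2977 and 2833 in Lep and 3274 and 3215 in BrM. Its log2 fold change was -2.39 ± 0.03 in Lep, -2.14 ± 0.04 in Int and -2.26 ± 0.04 in BrM, and every derivative library was below every Par library. GCLC, the catalytic subunit, had 8597, 8504 and 8966 in Par, 13389 and 11630.0 in Int, 7581, 7089 and 7388 in Lep and 17103 and 16891 in BrM. Its Int and BrM libraries stood above the parental ones and its Lep libraries below, without overlap, but no difference from Par reached the fold threshold (log2 fold change 0.97 ± 0.05 in BrM, 0.52 ± 0.05 in Int and -0.24 ± 0.04 in Lep). In Lep with BrM GCLC was called lower (-1.21 ± 0.05, limma adjusted p = 1.7e-10). The ratio of the GCLC to the GCLM normalized count, followed within each gene pair and not corrected for length, was 0.560 ± 0.0255 (SD, n = 3) in Par, 3.54 ± 0.283 (n = 2) in Int, 2.49 ± 0.114 (n = 3) in Lep and 5.24 ± 0.0217 (n = 2) in BrM.

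NQO1, a quinone reductase long used as a readout of NRF2, had 50464, 51877 and 50931 in HCC1954 Par, 17589.8 and 17487 in Int, 10304, 10339 and 9436 in Lep and 15498 and 15108 in BrM. It was lowest in the Lep libraries, which lay below all others. The log2 fold change was -2.35 ± 0.03 in Lep with Par, -1.54 ± 0.04 in Int with Par and -1.74 ± 0.04 in BrM with Par. TXNRD1, which keeps thioredoxin reduced, had 52538, 56696 and 54849.5 in Par, 17710.4 and 16321 in Int, 15445, 14627 and 14459 in Lep and 13597 and 13062 in BrM. All derivative libraries were at 17710.4 or less and all parental ones at 52538 or more. SRXN1, which repairs over-oxidized peroxiredoxins, had 11377, 12009 and 11501 in Par, 4800.5 and 4342 in Int, 2685, 2776 and 2543 in Lep and 4135 and 4095 in BrM, again lowest in Lep and with no overlap with Par. The Lep with Par log2 fold changes were -1.88 ± 0.04 for TXNRD1 and -2.12 ± 0.04 for SRXN1.

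HMOX1, the heme-degrading oxygenase that BACH1 represses, did not follow the other targets in HCC1954. Its normalized counts were 326, 276 and 299 in Par, 334 and 361 in Int, 328, 365 and 311 in Lep and 277 and 271 in BrM. The Lep and BrM libraries overlapped the parental ones, and the log2 fold change in Lep with Par was 0.16, with a 95% interval of -0.03 to 0.34. BACH1, which competes with NRF2 for the same elements, was called higher in Lep, at 7704, 7412 and 7006 against 3686, 3647 and 3653 in Par. Its log2 fold change of 1.01 ± 0.03 was right at the threshold, and it was not called in Int or BrM with Par. The part of BACH1 in the HMOX1 values was not tested.

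Of the regulators, NFE2L2 had 5793, 6265 and 6169 in HCC1954 Par, 6594 and 6263 in Int, 6887, 6569.6 and 6541 in Lep and 5080.1 and 5221 in BrM. Its Lep libraries stood just above and its BrM libraries below the parental ones, and the largest difference from Par, in BrM, was a log2 fold change of -0.24 ± 0.04. KEAP1 had 2890.4, 3064 and 3009.6 in Par, 1488 and 1589.9 in Int, 1633, 1651 and 1776 in Lep and 917 and 772 in BrM. Every derivative library was below every Par library, and KEAP1 was called lower in BrM (-1.83 ± 0.06) and missed the fold threshold in Int (-0.96 ± 0.06) and Lep (-0.83 ± 0.06). In Lep with BrM KEAP1 was called higher at 1.00 ± 0.06, right at the threshold, and it was not called with a pseudocount of 8, with quantile normalization, with the replicate number as a block or by edgeR, nor without BrM replicate 2 (0.88) or Lep replicate 3 (0.96). Under quantile normalization the Int with Par value passed the threshold (-1.04), and it also passed without Int replicate 2.

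Between HCC1954 Lep and Int 0 of the 9 genes were called by limma, edgeR or DESeq2, where 15.1% of all genes tested were called, 11.7% higher and 3.47% lower. With no fold threshold 6 members were lower and 0 higher at a limma adjusted p under 0.05. Among these NQO1 was at -0.81 ± 0.04, SRXN1 at -0.78 ± 0.05 and GCLC at -0.76 ± 0.05. The share of all genes at that looser cut is not given here. Of 30 further NRF2 target genes 28 passed it in either direction, and of 15 other antioxidant enzymes 11. Between Lep and BrM 2 were called, KEAP1 and GCLC, where 17.1% of all genes tested were called, 10.5% higher and 6.54% lower. The endothelial marker list summed to 4977 to 4986 in BrM and to 688 to 1090 elsewhere in HCC1954, most of it PECAM1 at 2763 to 2953 and CDH5 at 1772 to 2016. Of its 7 tested genes 5 were called higher in BrM with Par and 1 lower, while KDR was at 24.6 to 50.1, FLT1 at 0 to 1.04 and TEK at 0 in BrM. The macrophage marker list summed to 2869.6 to 2938 in Par and 2459 to 2733 in Lep, against 1014 to 1284 in Int and 974 to 1021 in BrM. Most of it was CD68, at 2567 to 2656 in Par, while PTPRC was at 8.29 or less and AIF1 at 2.37 or less in all HCC1954 libraries. All 3 of its tested genes, CD68, CSF1R and CD14, were called lower in Int and in BrM with Par (medians -3.58 and -2.71). CD14 alone was called lower in Lep with Par. Among all genes tested, 9.63% were called higher and 14% lower in BrM with Par, 14.6% lower in Int and 13.8% lower in Lep. The part of either marker list in these differences was not tested.

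**Figure D1:**
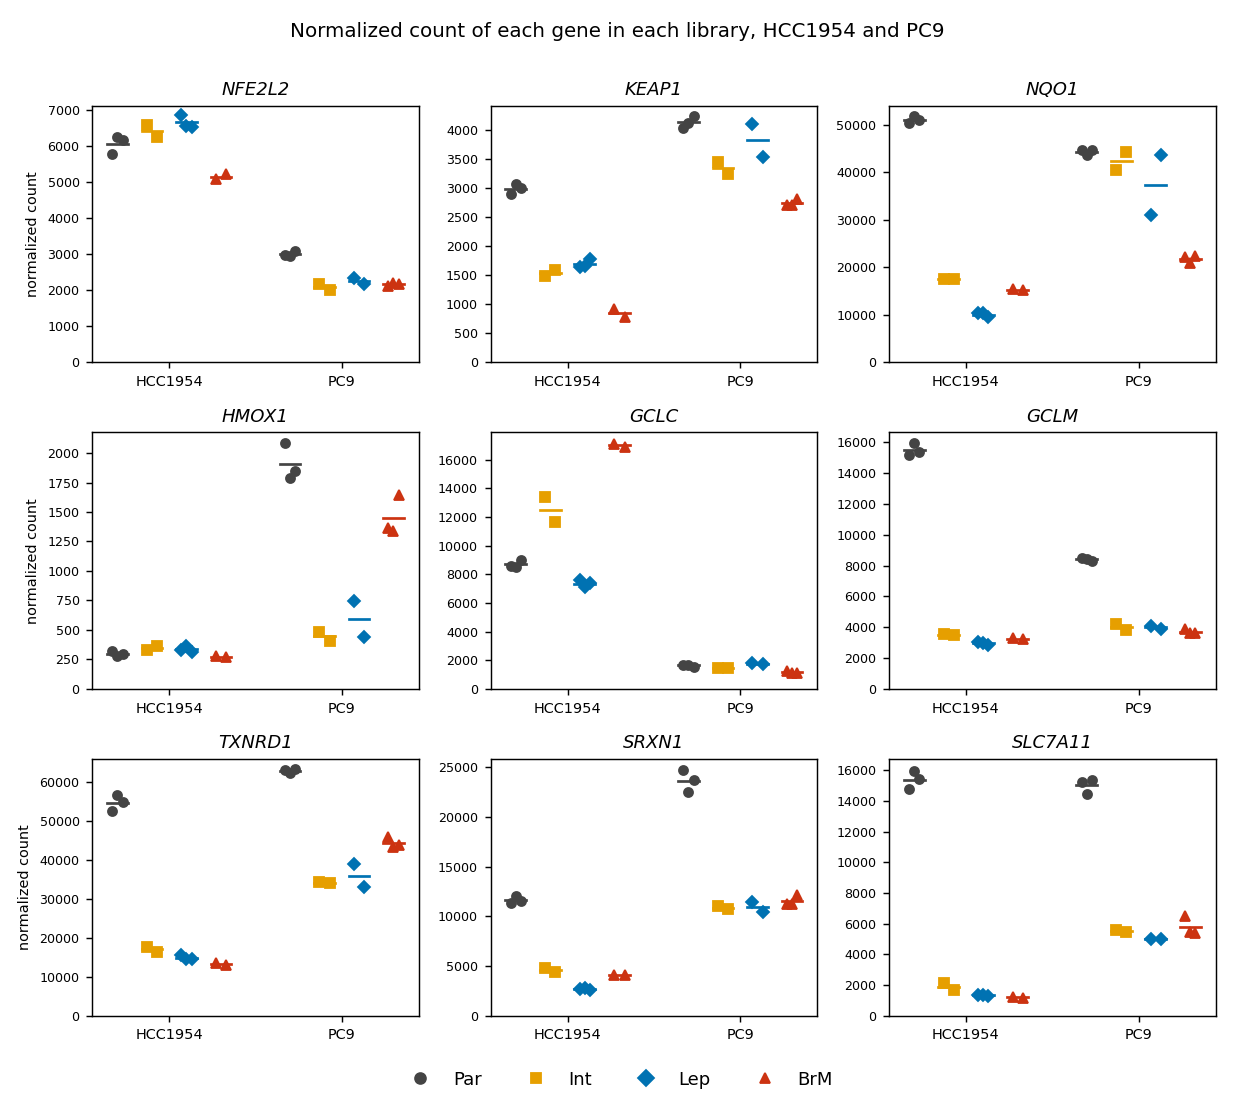
Normalized count (vertical axis, from 0) of each of the 9 genes in each library of HCC1954 and PC9, by stage, with a bar at the mean of the stage. SLC7A11 is at 14771 or more in the HCC1954 Par libraries and at 2099 or less in all HCC1954 derivatives. In PC9 it is at 14487 or more in Par and at 6478 or less in the derivatives.

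Other NRF2 targets were also called lower in HCC1954. Of 30 further NRF2 target genes, 18 were called lower and 1 higher in Lep with Par, 15 and 1 in Int with Par, and 16 and 1 in BrM with Par. Among all genes tested, 13.8% were called lower and 13% higher in Lep with Par. The shares were 14.6% and 6.6% in Int with Par and 14% and 9.63% in BrM with Par. The median of the list in Lep with Par was -1.52. The gene called higher in all 3 was GSTA4, a glutathione transferase. The drug exporter ABCC3 had 15252, 15139.5 and 15491 in Par and 222, 225 and 219 in Lep. The exporter ABCC2 had 11732, 12399.8 and 12344 in Par and 95.0, 119 and 111 in Lep. Every Lep library was far below every Par library for both exporters. The log2 fold changes of ABCC3 were -6.10 ± 0.08 in Lep, -7.22 ± 0.09 in Int and -5.95 ± 0.09 in BrM, and those of ABCC2 -6.80 ± 0.16, -5.30 ± 0.18 and -3.90 ± 0.18. ALDH3A1, an aldehyde dehydrogenase, had 10991, 11792 and 10745 in Par, 504 and 979.8 in Int, 408, 369.8 and 373 in Lep and 349.5 and 382 in BrM. It was called lower in all 3 derivatives, with a log2 fold change of -4.86 ± 0.16 in Lep, -3.99 ± 0.18 in Int and -4.93 ± 0.18 in BrM. CBR1, a carbonyl reductase, had 1404, 1486 and 1522 in Par, 0 in both Int libraries, and means of 0.721 in Lep and 1.17 in BrM. SQSTM1, the p62 adaptor that sequesters KEAP1, was called lower in all 3 derivatives, with means of 26616 ± 515 in Par, 10686 ± 77.7 in Int, 8972 ± 194 in Lep and 13129.8 ± 835 in BrM. Of 15 antioxidant enzymes outside these lists, 1 (SOD2) was called higher and 1 (MSRA) lower in Lep with Par. Of 10 genes of the ATF4 amino acid response, 2 (CHAC1 and ATF3) were called higher and 1 (TRIB3) lower. In that comparison 26.8% of all genes tested were called.

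In PC9 the transporter SLC7A11, GCLM and SRXN1 were lower in every derivative than in the parental line, and HMOX1 was lower in Lep and Int. In Lep with Par HMOX1, GCLM, SRXN1 and SLC7A11 were called lower, 4 of 9 genes, and 0 were called higher. Of the 14475 genes in that fit, 15.1% were called, 6.65% higher and 8.49% lower. The same 4 were called lower in Int with Par, where 13.9% of all genes tested were called, 6.24% higher and 7.71% lower. In BrM with Par the 4 called lower were NQO1, GCLM, SRXN1 and SLC7A11, where 7.72% of all genes tested were called, 4.62% higher and 3.1% lower. These comparisons also share their Par libraries. The median of the 9 genes was -0.81 in Lep with Par, -0.88 in Int with Par and -0.59 in BrM with Par, and that of all genes tested between -0.03 and 0.02.

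PC9 SLC7A11 had 15272, 14487 and 15364 in Par, 5623 and 5477 in Int, 5007 and 4973 in Lep and 6478, 5429 and 5412 in BrM. All derivative libraries were below Par, with log2 fold changes of -1.44 ± 0.08 in Int, -1.59 ± 0.08 in Lep and -1.39 ± 0.07 in BrM. GCLM had 8509, 8453 and 8269 in Par, 4239.9 and 3806 in Int, 4108 and 3906 in Lep and 3879, 3649 and 3634 in BrM, values of the derivatives that sit near the fold threshold (log2 fold change -1.07 ± 0.06 in Lep). Without Int replicate 2 the Int value was -0.99 and was not called. SRXN1 had 24688, 22524 and 23705 in Par, 11049.7 and 10695 in Int, 11454 and 10414 in Lep and 11222, 11246 and 12163 in BrM, with -1.11 ± 0.07 in Lep. No derivative library of these 3 genes overlapped Par.

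HMOX1 was lower in the PC9 leptomeningeal cells than in the brain metastatic ones. It had 2084, 1791 and 1845 in Par, 479 and 409.7 in Int, 743 and 444 in Lep and 1365, 1339 and 1646 in BrM. The Int and Lep libraries were all below the BrM libraries, which were below Par. HMOX1 was called lower in Int with Par (-2.10 ± 0.17), in Lep with Par (-1.73 ± 0.17) and in Lep with BrM (-1.33 ± 0.17, limma adjusted p = 1.4e-05), and not in BrM with Par (-0.40 ± 0.15). It was the only 1 of the 9 called in Lep with BrM, where 18.6% of all genes tested were called, 7.83% higher and 10.8% lower. Without Lep replicate 2 its value there was -0.96 and it was not called. BACH1 was called lower in Lep, at 495 and 630.2 against 1226, 1231 and 1180.4 in Par, and was not called in Int or BrM with Par. Its part in the HMOX1 values was not tested.

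NQO1 showed the other order in PC9, with 44634, 43626 and 44729.6 in Par, 40546 and 44242 in Int, 30892 and 43527 in Lep and 22101, 20908 and 22348 in BrM. Its BrM libraries were lowest and it was called lower in BrM with Par alone (-1.03 ± 0.10). With quantile normalization that value was -0.85, and without BrM replicate 2 it was just short of the threshold, and neither was called. TXNRD1 had 62941, 62154 and 63299 in Par, 34259 and 34004 in Int, 38832 and 32933 in Lep and 45936, 43263 and 43869.6 in BrM, below Par in every derivative library. Its log2 fold changes of -0.81 ± 0.07 in Lep and -0.88 ± 0.07 in Int were not called, but with quantile normalization they were -1.48 and -1.56 and were called. GCLC stayed between 1115 and 1823 in all PC9 libraries and was called in no comparison. NFE2L2, the regulator, had 2992, 2949.7 and 3097 in Par and between 2008 and 2347 in the derivatives, and KEAP1 between 4030.0 and 4245 in Par and between 2705 and 4108 in the derivatives. Neither was called, with log2 fold changes against Par of -0.42 to -0.52 for NFE2L2 and -0.12 to -0.59 for KEAP1.

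In PC9 gene length moved with the groups. The Spearman correlation across genes of a library's deviation from the mean with the longest transcript length was 0.330 to 0.349 in Par, 0.265 to 0.397 in BrM, and -0.475 to -0.374 in Int and Lep. With the median transcript length it was 0.105 to 0.148 in Par and BrM and -0.176 to -0.124 in Int and Lep. After correction for the median transcript length SRXN1 was not called in Lep (-0.90) or Int (-0.90), nor SLC7A11 in Int (-0.94). After correction for the longest transcript, a measure added after the data and the median result had been seen, GCLM was not called in Lep (-0.89) or Int (-0.88), nor SLC7A11 in Int (-0.88). Between PC9 Lep and Int 0 of 9 genes were called by limma, edgeR or DESeq2, where 0.608% of all genes tested were called, 0.228% higher and 0.38% lower. Without adjustment 2 members were higher and 0 lower with p under 0.05, and the share of all genes at that cut is not given here.

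Of 30 further NRF2 targets in PC9, 12 were called lower and 0 higher in BrM with Par (median -0.90), against 4 lower in Lep with Par (median -0.05) and 2 lower and 1 higher in Int with Par (median 0.16). Among all genes tested, 3.1% were called lower and 4.62% higher in BrM with Par, and 8.49% lower in Lep with Par. In Int with Par the shares were 7.71% lower and 6.24% higher. In Lep with BrM 11 of the 30 were called higher and 0 lower, against 7.83% and 10.8% of all genes tested. AKR1C1, an aldo-keto reductase, had 57803, 58061 and 57645 in Par, 32811 and 19059.5 in Lep and 5384, 6225 and 5408 in BrM. The BrM libraries lay below all others. Its log2 fold change from Par was -1.21 ± 0.16 in Lep and -3.35 ± 0.14 in BrM. Its relative AKR1B10 had 58209, 59163 and 57919 in Par and 13837, 14365 and 13705 in BrM (-2.06 ± 0.06). ALDH3A1 had 7802, 8297 and 7612 in Par and 661, 761 and 624 in BrM, a log2 fold change of -3.54 ± 0.10. OSGIN1, an oxidative stress-induced growth inhibitor, was called lower in all 3 derivatives, at -1.30 in Lep, -1.29 in Int and -1.81 in BrM. UGDH, which makes UDP-glucuronate, was called lower in Lep, at 8977 and 5806 against 18493, 19814 and 18383 in Par (-1.39 ± 0.13). It was also called lower in BrM. ABCC2 (-1.06 ± 0.08) and the small MAF gene MAFG (-1.04 ± 0.07) were called lower in Int with Par, and ABCC2 also in Lep with Par. NFE2L3, a relative of NFE2L2, was called higher in Lep (1.28 ± 0.09) and in Int (1.18 ± 0.09), at 1967 and 2425 in Lep and 1903 and 2200.2 in Int against 938, 927 and 843 in Par. AKR1C1 and AKR1B10 have near-identical relatives, between which the counting could have split reads, so their values are uncertain. The endothelial marker list summed to 947.6 to 1278 in PC9 Int and Lep and to 372 to 413 in Par and BrM, most of it PECAM1 and CDH5, which were 2 of its 3 tested genes and were called higher in both Int and Lep with Par. KDR was at 1.22 or less and TEK at 1.93 or less in all PC9 libraries. Higher calls made up 6.24% of all genes tested in Int with Par and 6.65% in Lep with Par.

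In LLC, the mouse model, Nqo1, Hmox1 and Gclm were higher in Int and BrM than in the parental line, Txnrd1 and Srxn1 were higher in Int, and Slc7a11 was lower in BrM. In Int with Par Nqo1, Hmox1, Gclm, Txnrd1 and Srxn1 were called higher, 5 of 9 genes, and 0 lower. Of the 13494 genes in that fit, 11.5% were called, 6.4% higher and 5.08% lower. In BrM with Par Nqo1, Hmox1 and Gclm were called higher and Slc7a11 lower, where 23.2% of all genes tested were called, 8.14% higher and 15.1% lower. In Lep with Par limma called 0, where 20.3% of all genes tested were called, 8% higher and 12.3% lower. With no adjustment of p, 4 members lay higher and 2 lower with p under 0.05. At a limma adjusted p under 0.05, 5 of the 9 genes differed and missed only the fold threshold. The share of all genes at either of these looser cuts is not given here. In the same comparison 13 of 20 further NRF2 targets and 5 of 15 other antioxidant enzymes were under that adjusted p. Of the 9 genes in Lep with Par edgeR called 0 and DESeq2 1 (Hmox1, 1.01). The 3 comparisons share the Par libraries. The median of the 9 genes was 1.17 in Int, 0.17 in Lep and 0.51 in BrM with Par, and that of all genes tested 0.00, 0.00 and -0.05.

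Nqo1 had 1295, 1302 and 1134 in Par, 7613 and 6921 in Int, 2533, 2017 and 1315 in Lep and 6053, 7325 and 6177 in BrM. The Int and BrM libraries were all far above Par, and the Lep libraries lay between them, the third just above Par. The log2 fold change was 2.55 ± 0.22 in Int with Par, 2.39 ± 0.19 in BrM with Par and 0.60 ± 0.19 in Lep with Par. Nqo1 was called lower in Lep with Int (-1.94 ± 0.22) and in Lep with BrM (-1.78 ± 0.19).

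Gclm had 1072, 1099 and 1113 in Par, 3838 and 4042 in Int, 2545, 2491 and 1363 in Lep and 2745, 2899 and 2830.0 in BrM, and Hmox1 723, 878 and 925 in Par, 2052 and 1740.4 in Int, 1894, 2155 and 1031 in Lep and 2014, 2203 and 2028 in BrM. For both genes every derivative library was above every Par library, and Lep replicate 3 was the lowest derivative. Gclm rose by 1.85 ± 0.22 in Int and 1.37 ± 0.19 in BrM, and Hmox1 by 1.17 ± 0.25 and 1.31 ± 0.22 on the log2 scale. In Lep with Par Gclm was at 0.91 ± 0.19 and Hmox1 at 0.95 ± 0.22, just short of the threshold. Without Lep replicate 3 Gclm (1.20) and Hmox1 (1.27) were called higher and Slc7a11 (-1.22) lower in Lep with Par. Hmox1 was also called without Par replicate 3 (1.02) and with quantile normalization (1.01), and Slc7a11 without Par replicate 1 (-1.10). Without Int replicate 1, Hmox1 (1.05, adjusted p = 0.058 by limma) and Srxn1 (0.92) were not called in Int with Par.

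Txnrd1 had 14038, 17511 and 19059.6 in Par, 44957 and 53844 in Int, 29289, 19761 and 18527 in Lep and 17265, 16028 and 17230.0 in BrM. It was called higher in Int with Par (1.56 ± 0.20) and was at 0.40 ± 0.17 in Lep and 0.01 ± 0.17 in BrM, which were not called, although 2 of 3 Lep libraries lay above every Par library. Srxn1 had 4661, 5497 and 5332 in Par, 16554 and 9740.2 in Int, 4808, 3834 and 4431 in Lep and 5067, 5655 and 5294 in BrM. Its 2 Int libraries differed from each other but were both above all the rest, with 1.30 ± 0.19 in Int with Par. Slc7a11 varied within groups, with 4509.6, 6115 and 8421 in Par, 11933 and 7069 in Int, 1927, 3612 and 5350.5 in Lep and 1721, 1183 and 1668 in BrM. Only BrM was clear of Par, at -2.03 ± 0.34. Gclc was between 3074 and 5488 in all LLC libraries and was called in no comparison. The ratio of Gclc to Gclm was 3.14 ± 0.284 (SD, n = 3) in Par, 1.22 ± 0.167 (n = 2) in Int, 1.81 ± 0.437 (n = 3) in Lep and 1.76 ± 0.339 (n = 3) in BrM, highest in Par, where the HCC1954 ratio was lowest.

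Nfe2l2 had 14797, 16006 and 17248 in LLC Par, 15786 and 13852 in Int, 8969.6, 9713 and 11669 in Lep and 9832, 9399 and 9874 in BrM. The Lep and BrM libraries were below all Par and Int libraries, at log2 fold changes from Par of -0.67 ± 0.12 and -0.72 ± 0.12 that were under the fold threshold. Keap1 was at 2220 to 2736 in Par and 3472 to 3847 in BrM, also without a call (0.55 ± 0.11). In Lep with Int 4 genes were called lower, Nqo1, Txnrd1, Srxn1 and Slc7a11, and 0 higher, where 22.5% of all genes tested were called, 8.47% higher and 14% lower. Slc7a11 was not called there without Int replicate 1 (-1.08), nor Txnrd1 with quantile normalization (-0.88), and Gclm was called without Lep replicate 1 (-1.10) or 2 (-1.08). In Lep with BrM Nqo1 was called lower and Slc7a11 higher, where 18% of all genes tested were called, 11.1% higher and 6.85% lower. The Slc7a11 call was lost without BrM replicate 2 (0.98) or Lep replicate 3 (0.81).

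The macrophage marker list stood apart in the same LLC Int libraries, at a sum of 5627 to 6017 over its 8 matched genes, against 616 to 1184 elsewhere. Almost all of it was Cd68, at 5159 to 5585, while Ptprc was at 2.25 to 3.84, Csf1r and Aif1 at 0.563 or less, and Cd163 at 0. Of its 4 tested genes 2, Cd68 and Cx3cr1, were called higher in Int with Par (median 2.56), with Cx3cr1 at 19.2 to 67.0 in Int and at 13.2 or less elsewhere. The Int libraries were also the deepest LLC libraries, at 67198962 and 67939274 recovered reads. The fibroblast and pericyte marker list summed to 5643 to 6006 in Par, 4186 to 6573 in Int, 2110.1 to 3971 in Lep and 1657 to 2068 in BrM. Of its 8 tested genes 3 were called lower and 0 higher in Int with Par (median -1.19), 4 lower and 1 higher in Lep (-1.06), and 4 lower and 0 higher in BrM (-1.31). The part of either marker list or of depth in the LLC calls was not tested. Of 20 further NRF2 targets tested in LLC, 6 were called higher and 1 lower in Int with Par (median 0.56), 4 higher and 2 lower in BrM with Par (median 0.45), and 1 higher in Lep with Par (median -0.24). Among all genes tested, 6.4% were called higher and 5.08% lower in Int with Par, and 8.14% and 15.1% in BrM with Par. In Lep with Par the shares were 8% higher and 12.3% lower. Blvrb, a biliverdin reductase that acts after heme oxygenase, was at 1386, 1524 and 1252 in Par and 5814 and 6366 in Int (2.14 ± 0.32). Its relative Blvra was called higher in BrM (1.72 ± 0.21) and also in Lep. Taldo1, a transaldolase, was called higher in Int, at 16515 and 22405 against 5122, 5060.1 and 4615 in Par (1.96 ± 0.23). The glutathione transferase Gsta4 was called higher in Int (1.91 ± 0.43) and also in BrM. The exporter Abcc3 went the other way, at 118, 121 and 109 in Par, 15.3 and 15.2 in Int and 5.07, 15.3 and 3.29 in BrM, and was called lower in Int (-2.85 ± 0.53) and BrM (-3.96 ± 0.47). The small MAF genes Maff (1.22) and Mafk were called higher in Int with Par, and Maff lower in Lep with Par (-1.23). In the ATF4 list of 10 genes, 5 were called lower and 1 (Phgdh) higher in BrM with Par, 3 lower and 0 higher in Lep with Par, and 1 lower (Chac1) and 1 higher (Ddit3) in Int with Par. Trib3, a pseudokinase induced in the stress response, was at -2.14 ± 0.55 in Lep and -1.83 ± 0.55 in BrM. Chac1, which degrades glutathione, was at -1.45 ± 0.35 and Sesn2, a sestrin, at -1.27 ± 0.28 in Lep, and the transcription factor Atf3 was at -1.74 ± 0.40 in BrM. Chac1 and Sesn2 were also called lower in BrM.

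**Figure D2:**
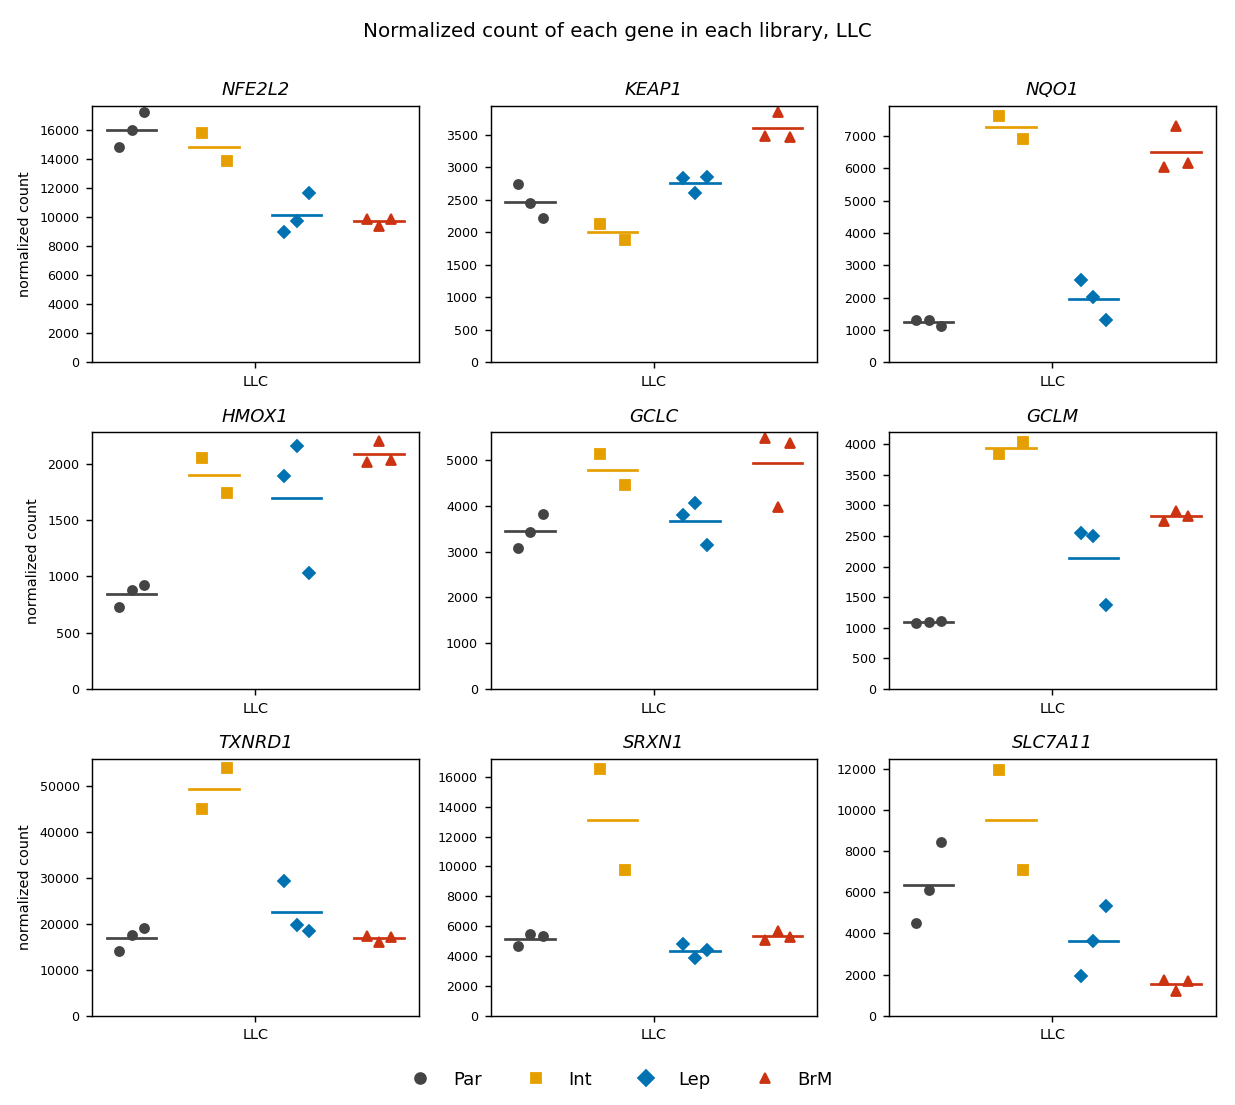
Normalized count (vertical axis, from 0) of each of the 9 genes in each LLC library, by stage, with a bar at the mean of the stage. Nqo1 is at 1302 or less in Par and at 6053 or more in Int and BrM, and Lep replicate 3 lies near Par for Nqo1, Hmox1 and Gclm.

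In MDA-MB-231 NQO1 in Int with Par was the only call among the 9 genes, and the parental libraries disagreed among themselves. In Lep with Par 0 of 9 genes were called by limma. Of the 15106 genes in that fit, 0.0662% were called, 0.0199% higher and 0.0463% lower. Without adjustment 1 member was lower and 0 were higher with p under 0.05, and edgeR called 0 and DESeq2 1. In BrM with Par limma, edgeR and DESeq2 called 0 members, where by limma 0.45% of all genes tested were called, 0.344% higher and 0.106% lower. Of the members 4 were lower there at an unadjusted p under 0.05. In Int with Par NQO1 was called lower, 1 of 9, where 6.94% of all genes tested were called, 4.33% higher and 2.61% lower. In Lep with Int limma, edgeR and DESeq2 called 0 members, where by limma 0.159% of all genes tested were called, 0.0265% higher and 0.132% lower. In Lep with BrM they called 0 as well, where by limma 0.827% of all genes tested were called, 0.344% higher and 0.483% lower. In each of these 2 comparisons 1 member was higher at an unadjusted p under 0.05. The share of all genes at an unadjusted p under 0.05 is not given here for any MDA-MB-231 comparison. The unadjusted member counts therefore have no background beside them. The median of the 9 genes was -0.28 in Int, -0.10 in Lep and -0.47 in BrM with Par, and that of all genes tested 0.02, -0.01 and -0.01.

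NQO1 had 14248, 27392 and 28169 in MDA-MB-231 Par, 9138 and 7591 in Int, 8134 and 10327 in Lep and 10118, 16160.1 and 14316 in BrM. All Int and Lep libraries were below all Par libraries, and Par replicate 1 was near the BrM libraries. The log2 fold change was -1.42 ± 0.32 in Int with Par (limma adjusted p = 0.031) and -1.28 ± 0.32 in Lep with Par (adjusted p = 0.22). The Int call was lost when only the 2 groups were fitted (adjusted p = 0.095 by limma) and without Par replicate 2 (-1.27) or 3 (-1.25), either Int replicate (-1.55 and -1.28) or BrM replicate 3 (-1.42). DESeq2 called NQO1 lower in Lep with Par (-1.33), as did limma without Par replicate 1 (-1.60).

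SLC7A11 had 13176, 15623 and 3270.0 in Par, 5724 and 5177 in Int, 7147 and 6679.9 in Lep and 5303, 3362 and 3825 in BrM. Par replicates 1 and 2 were above every derivative and Par replicate 3 below every one. TXNRD1 had 39409.8, 37397 and 15878 in Par, 33327 and 32272 in Int, 29169 and 24251 in Lep and 21823, 12594 and 14439 in BrM, and GCLM 3879.6, 3504 and 1312 in Par, 3699 and 3513 in Int, 3623 and 1795 in Lep and 1126, 1530.2 and 1320.3 in BrM. For both genes Par replicate 3 lay among the BrM libraries. With all libraries the BrM with Par log2 fold changes were -1.10 ± 0.50 for SLC7A11, -0.85 ± 0.34 for TXNRD1 and -0.99 ± 0.41 for GCLM, and none was called. Without Par replicate 3 they were -1.81, -1.28 and -1.49 and all 3 were called lower, and SLC7A11 (-1.40) was also called lower in Int with Par.

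The other members were not called in MDA-MB-231. SRXN1 was between 3862 and 5114 in all libraries, and NFE2L2 between 3817 and 6759.6. HMOX1 was between 429.7 and 989 and GCLC between 1286 and 2137. KEAP1 had 8300.3, 11359.6 and 13190.0 in Par and 5821 and 5493 in Int, lower in both Int libraries, at -0.93 ± 0.21 and short of the threshold. Without Par replicate 1 it was called (-1.11). Gene length moved with libraries here as well, with a Spearman correlation with the longest transcript length of 0.468 in Par replicate 1 and 0.434 to 0.449 in Int, against -0.346 and -0.449 in Par replicates 2 and 3. After correction for the median transcript length the Par values, in replicate order, were 3807, 3518 and 1329 for GCLM, 40926, 36375 and 15224 for TXNRD1, and 10272, 16844 and 4334 for SLC7A11. Par replicate 3 remained the lowest of the 3 for each gene.

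Of the wider lists in MDA-MB-231, 27 NRF2 targets were tested, and 0 were called in Lep with Par, 1 higher (ABCC3) and 1 lower (FTL, the ferritin light chain) in Int with Par, and 1 lower (ALDH3A1) in BrM with Par. Among all genes tested, 0.0662% were called in Lep with Par, 4.33% higher and 2.61% lower in Int, and 0.106% lower in BrM. ABCC3 had 125, 177 and 165 in Par and 1342 and 1447 in Int (3.17 ± 0.40). FTL was at -1.18 ± 0.28 in Int, and ALDH3A1 at -3.04 ± 0.52 in BrM. RBX1, the RING subunit of the CUL3 ligase, had 3208, 6544 and 7834 in Par and 2394 and 2071 in Int, and was called lower at -1.30 ± 0.36 (limma adjusted p = 0.0497). SLC3A2, the partner of SLC7A11, had 16765, 30052 and 28972 in Par and 8502 and 7374 in Int, both Int libraries below all Par libraries, and was called lower (-1.63 ± 0.25).

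**Figure D3:**
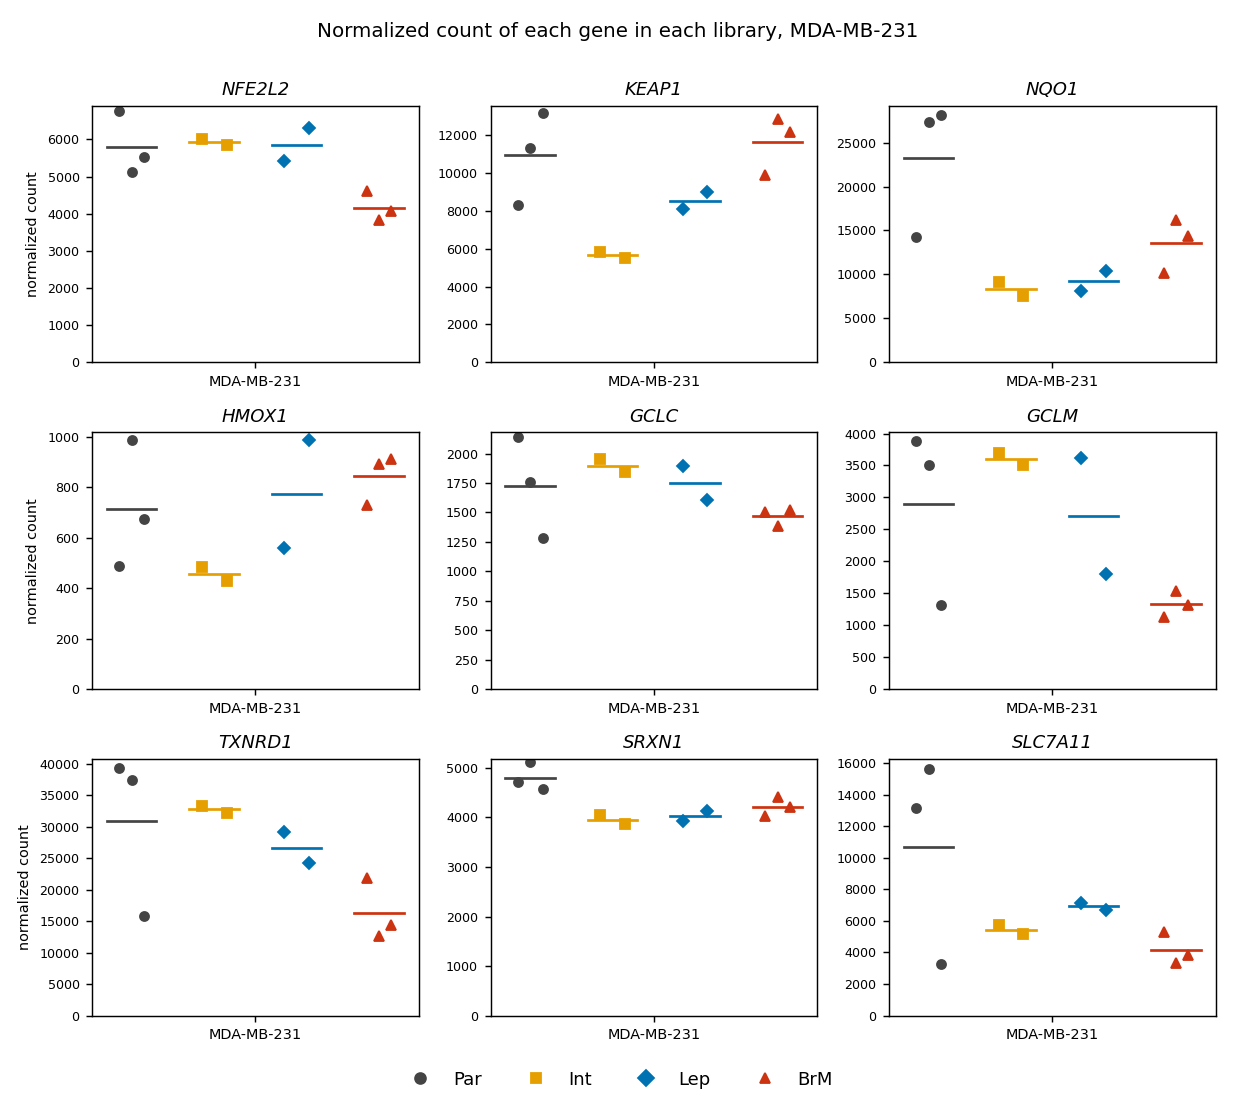
Normalized count (vertical axis, from 0) of each of the 9 genes in each MDA-MB-231 library, by stage, with a bar at the mean of the stage. For SLC7A11 the Par libraries lie at 13176, 15623 and 3270.0, on both sides of all derivatives.

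Across models each table was normalized on its own, so levels were not compared between them. NQO1 was called against Par in all 4 models, lower in HCC1954, PC9 (BrM alone) and MDA-MB-231 (Int alone) and higher in LLC. The MDA-MB-231 call was lost under several alternatives. GCLM and SRXN1 were each called in derivatives of 3 models, lower in HCC1954 and PC9 and higher in LLC. SLC7A11 was called lower in at least 1 derivative of the same 3. GCLC and NFE2L2 were called against Par in 0 comparisons of any model, where they differed from Par by at most 0.97 and 0.72 on the log2 scale. The difference in direction between models was not tested.

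**Figure D4:**
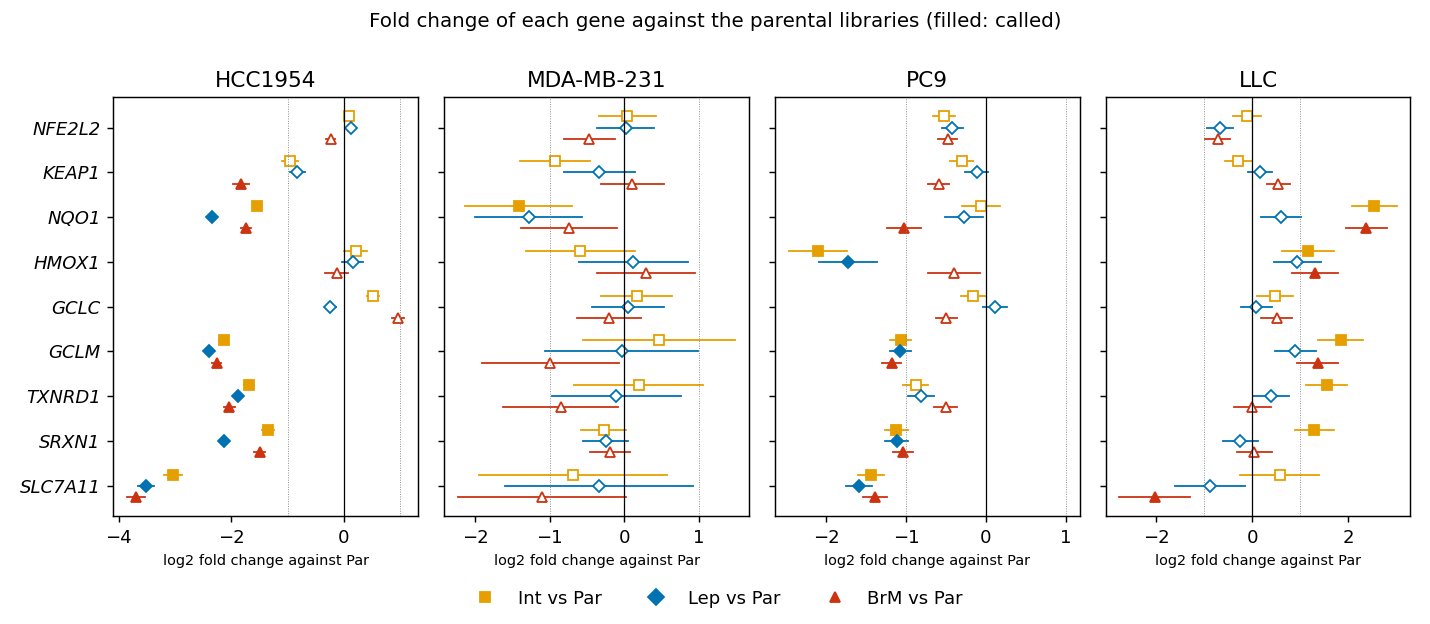
Log2 fold change (horizontal axis) of each gene in Int, Lep and BrM against Par in the 4 models, with 95% intervals from limma. Filled points were called and dotted lines mark a log2 fold change of 1 in either direction. The HCC1954 and PC9 calls all lie below 0, and the LLC calls lie above 0 except that of Slc7a11 in BrM (-2.03).

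**Figure D5:**
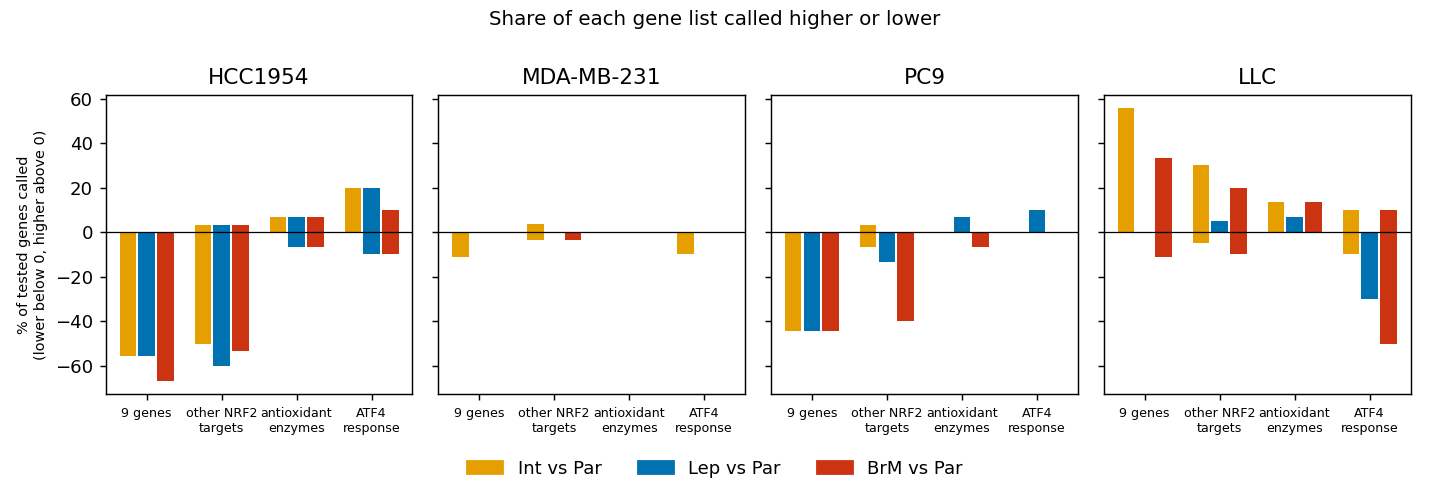
Share of tested genes called higher (bars above 0) or lower (bars below 0) against Par for the 9 genes and 3 wider lists, by model and derivative. In HCC1954, 18 of 30 further NRF2 targets are lower in Lep, and in PC9, 12 of 30 are lower in BrM.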

How the data were processed

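Polyadenylated RNA of 41 libraries was sequenced from 500 ng of RNA with TruSeq v2, which does not mark strand, in paired reads, 75 bases long in MDA-MB-231 and 50 in the other models, per the labels. In the human models reads of NFE2L2, NQO1, GCLC, TXNRD1 and SLC7A11 therefore cannot be told apart from those of overlapping antisense genes. Same-strand overlaps include the protein-coding genes EID3 at TXNRD1 and AL121758.1 at SRXN1. Overlaps in the mouse were not looked up. For each model the authors deposited a signal table, in which each library's counts are scaled by its size factor. The submitters' processing notes name FastQC 0.11.3, HTSeq 0.5.4, DESeq2 and the builds hg19 (GRCh37) and mm10 (GRCm38). No aligner is named there or in the labels. Values were whole multiples of 1 step per library (100% within a tolerance of 0.01), which gave recovered reads of 25330801 to 67367833 in HCC1954, 23508951 to 110830546 in MDA-MB-231, 16792027 to 38432963 in PC9 and 18029707 to 67939274 in LLC.

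Genes at 10 or more in 2 or more libraries of a model were fitted with limma 3.58.1 (trend, R 4.3.3) on log2(value + 1), two-sided, all libraries in 1 fit, with Benjamini-Hochberg adjustment over all genes tested. A call needs an adjusted p below 0.05 and a log2 fold change of at least 1. Alternatives were a pseudocount of 8, no filter, quantile normalization, fitting 2 groups only, a replicate block, edgeR 4.0.16 and DESeq2 1.42.0 on recovered reads, a correction for median transcript length (GENCODE, human models) and leaving out each library. A correction for the longest transcript was added after the data and the results of the median correction had been seen, and both are reported. Tested on simulated data, 100%, 80%, 100% and 99% of genes changed 4-fold between Lep and Par were called in HCC1954, in MDA-MB-231, in PC9 and in LLC. False calls numbered 3, 8, 2 and 7 in that order. Genes changed 2-fold, at the fold threshold, were also simulated, and their share called is not given here. Simulated libraries were drawn independently, so shifts shared by genes of like length were not part of the simulation. The labels give no shared animal or day for a replicate number, so pairing was read from the deviations of same-numbered libraries from their stage means. Only MDA-MB-231 Par and BrM had 3 pairs all above 0.1 (0.50, 0.26 and 0.23), and these numbers were treated as possible pairs. Libraries of that model with different numbers reached 0.42 (Par replicate 3 with Lep replicate 2), so the values do not establish pairing. The main fit uses no pairs. The members and gene lists were chosen with earlier results of these data known. Genes of the wider lists are named where called against Par without overlap of libraries, the 4 largest changes per comparison, and BACH1, SQSTM1, SLC3A2 and ATF4 could be named in any model. Not every result under this rule is reported here. List members named in counts of 5 or fewer, and Mafk, were named after their values were seen. Promoter windows are from RefSeq (GRCh38.p14), and their coordinates were not joined to the tables, which hold symbols only.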

Additional observations from a re-analysis of the deposited data

Results flagged for a closer look

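Members were called in opposite directions in different models under the same comparison, with no overlap of libraries in either model. The difference between models was not tested, because the tables were normalized separately. In Int with Par, NQO1 had a log2 fold change of 2.55 in LLC, -1.54 in HCC1954 and -1.42 in MDA-MB-231. HMOX1 was at 1.17 in LLC and -2.10 in PC9. GCLM was at 1.85 in LLC, -2.14 in HCC1954 and -1.07 in PC9. TXNRD1 was at 1.56 in LLC and -1.68 in HCC1954. SRXN1 was at 1.30 in LLC, -1.35 in HCC1954 and -1.12 in PC9. In BrM with Par, NQO1 was at 2.39 in LLC, -1.74 in HCC1954 and -1.03 in PC9, and GCLM at 1.37 in LLC, -2.26 in HCC1954 and -1.18 in PC9.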

How the results depend on the processing

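Of 170 recounts of called members under settings other than leaving out a library, 160 stayed within 1.5 times the count, and of 3375 member fold changes under an alternative, 48 changed their call and 0 called values reversed. In HCC1954 Lep with BrM the count was 1 in place of 2 with a pseudocount of 8, with quantile normalization, with edgeR and with the replicate block. With DESeq2 it was 1 in place of 0 in MDA-MB-231 Lep with Par and in LLC Lep with Par, and with quantile normalization 1 in place of 0 in the latter. Fitting 2 groups only gave 0 in place of 1 in MDA-MB-231 Int with Par. In PC9 Int with Par the count was 2 in place of 4 with either length correction, but through different genes: SLC7A11 and SRXN1 were lost with the median transcript length, and SLC7A11 and GCLM with the longest transcript, which was added after the median result had been seen. The correction was not run for LLC, for which no lengths were used here. Leaving out 1 library gave counts of 5 to 6 in HCC1954 Int with Par, 1 to 2 in HCC1954 Lep with BrM, 0 to 1 in MDA-MB-231 Lep with Par, 0 to 2 in MDA-MB-231 Int with Par, 0 to 3 in MDA-MB-231 BrM with Par, 3 to 4 in PC9 Int with Par and BrM with Par, 0 to 1 in PC9 Lep with BrM, 0 to 3 in LLC Lep with Par, 3 to 5 in LLC Int with Par and Lep with Int, and 1 to 2 in LLC Lep with BrM, and left the others as they were. Where an arm of 2 libraries lost 1, the lone library is assumed to vary like the other groups. Correlations of same-numbered libraries were -0.06 to 0.03 in HCC1954, -0.09 to 0.50 in MDA-MB-231, -0.03 to 0.10 in PC9 and -0.11 to 0.14 in LLC. In MDA-MB-231 Par and BrM, whose numbers were treated as possible pairs, the replicate block called 0 members, as did the fit without it. It called 54 genes in place of 68. Par replicate 3 correlated more with BrM replicate 2 (0.34) than with BrM replicate 3. In all models the labels give only a number for the libraries. The replicate block changed no other call of a member. Over all genes in MDA-MB-231 Lep with Par, 10 were called by limma, 274 by DESeq2, 8 by edgeR, 4 with 2 groups only and 55 with the longest-transcript correction. In Int with Par 1049 were called by limma, 2170 by DESeq2 and 356 with 2 groups only, and in BrM with Par 68, 471 and 5. In Lep with Int the counts were 24 by limma and 0 to 470 under alternatives, and in Lep with BrM 125 and 62 to 740. In PC9 Lep with Int 88 were called by limma and 1 with 2 groups only. Quantile normalization moved the share of higher calls among all genes from 31.1% to 54.4% in HCC1954 Int with Par, 40.8% to 54.8% in HCC1954 BrM with Par, 77.1% to 58.0% in HCC1954 Lep with Int, 35.0% to 50.5% in LLC BrM with Par and 37.6% to 48.5% in LLC Lep with Int. With 2 or 3 libraries a group, their number limits the precision.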

Other observations

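The genes whose pattern over libraries was nearest to the member with the widest range of stage means on the log2(value + 1) scale in each model were listed by root mean square difference of centred log2 values, among genes with a mean of at least 100. In HCC1954 the nearest to SLC7A11 over 10 libraries were ZNF606 (0.156), CLIP4 (0.180) and ZC3H12B (0.219). In MDA-MB-231 the nearest to GCLM over 10 libraries were ATP2B1 (0.225), OGFRL1 (0.232) and ZNF347 (0.236). In PC9 the nearest to HMOX1 over 10 libraries were LRIG3 (0.182), ZNF689 (0.191) and HSPA8 (0.193), a heat shock protein with means of 58917 in Par, 15056 in Int, 16296 in Lep and 45071 in BrM. In LLC the nearest to Slc7a11 over 11 libraries were Klf4 (0.294), Rassf8 (0.327) and Aldh1l2 (0.342).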
